A study of Mus musculus with 2 samples.

Results

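The genes described here are those of the Fc receptors of the mouse macrophage and of the signalling chain that serves them, 9 of the 55536 genes measured. They are the activating receptor genes Fcgr1, Fcgr3 and Fcgr4, the inhibitory receptor genes Fcgr2b and Pirb, the adaptor genes Fcer1g and Tyrobp, the kinase gene Syk and the receptor gene Trem1. Each was found by its gene symbol in the transcript identifiers of the tables and followed by its gene identifier, and every symbol matched 1 gene. The assay was total RNA sequencing, with ribosomal RNA depleted, of a nuclear fraction, labelled nucleoplasmic, from macrophages grown out of C57BL/6J bone marrow. All cells were given 100 ng/ml of Lipid A, the TLR4-stimulating moiety of bacterial lipopolysaccharide, for 12 h, were left to rest without it during 12 h, and then saw 100 ng/ml again for 40 min. The design held this 1 group of 2 libraries and no untreated or singly treated cells, so levels are described and no change with treatment was measured. The labels name the libraries biological replicates 1 and 2 but give the same donor entry for both, and the spread between them may be technical. The RNA input was 1 µg for library 1 against 500 ng for library 2, a difference that cannot be told apart from the replicate number. The labels give neither age nor sex of the animals.

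Receptors for the Fc part of IgG let a macrophage bind antibody-coated particles. The activating receptors have little signalling capacity of their own and assemble with the common gamma chain encoded by Fcer1g, whose tail holds an immunoreceptor tyrosine-based activation motif, or ITAM. Tyrobp, also called DAP12, is a second such adaptor and serves receptors of the TREM family and several lectins. When Src-family kinases phosphorylate the pair of ITAM tyrosines, the kinase Syk docks there and passes the signal on. Fcgr2b and Pirb instead carry inhibitory motifs, ITIMs, with single tyrosines that recruit phosphatases.

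Expected counts on genes summed to 19797829 in library 1 and to 17213606 in library 2. With a minimum of 10 expected counts per library, 10991 protein-coding genes were detected, which is 49.9% of those annotated. All 10 macrophage markers were detected, at a median of the 96.5th percentile of detected protein-coding genes. Of the 8 markers on each of the other lists, 0 were detected for neutrophils and natural killer cells, 1 for mast cells or basophils (Kit), 1 for B cells (Cr2), 1 for T cells (Cd4) and 4 for dendritic cells. By RSEM the summed level of a list reached 23.6 TPM (a length-scaled unit of transcript abundance) for T cells. Of this Cd4 gave 19.8 and 23.0 TPM in libraries 1 and 2. The RSEM sum was at most 2.99 TPM for each of the other lists that are not of macrophages. Mitochondrial transcripts took 2.63% of counts in library 1 and 6.60% in library 2.

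Fc receptor signalling genes were abundant in this fraction. Of the 9 genes 8 were detected, and 6 of them (Fcer1g, Fcgr2b, Pirb, Syk, Fcgr1 and Tyrobp) were among the highest 5% of the protein-coding genes detected. The median of the 9 was at the 96.65th percentile by mean TPM, 113 TPM against 6.38 TPM for the median detected protein-coding gene. Trem1 was at the floor of detection in the RSEM tables. These are levels in bulk RNA, in which fewer cells of a type and less RNA per cell cannot be told apart.

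**Figure D1:**
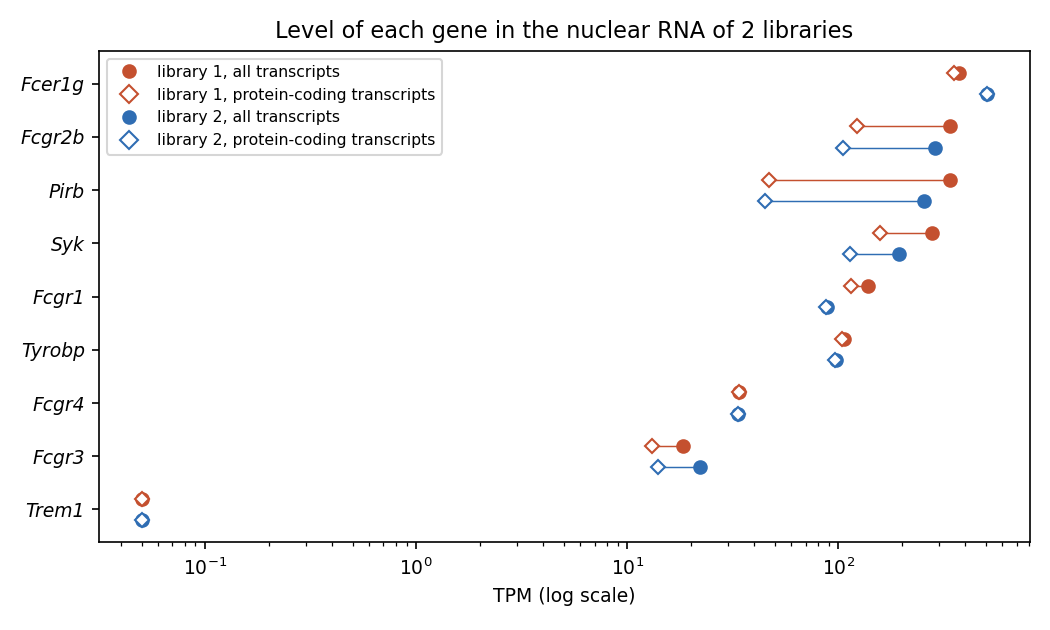
TPM of each of the 9 genes (log axis) in library 1 (red) and library 2 (blue), summed over all annotated transcripts (filled circles) or over protein-coding transcripts alone (open diamonds). Fcer1g is highest at 373 and 509 TPM over all transcripts, and the distance between the symbols is widest for Pirb.

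Among the activating receptors Fcgr1, the high-affinity IgG receptor, was the most abundant. It had 138 TPM in library 1 and 88.4 in library 2, from 6047 and 4672 expected counts. Fcgr4, the mouse receptor for IgG2a and IgG2b, had 33.7 and 33.6 TPM from 759 and 786 counts. Fcgr3, a low-affinity receptor for IgG complexes, had 18.4 and 22.1 TPM from 444.8 and 552.3 counts. The order Fcgr1, Fcgr4, Fcgr3 was the same in both libraries, and no value of 1 gene overlapped those of the next. Fcgr1 supplied 72.5% of the summed TPM of the 3 genes in library 1 and 61.4% in library 2 (66.9% ± 7.90, SD, n = 2), while Fcgr3 supplied 9.72% and 15.3%.

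The inhibitory receptor gene Fcgr2b exceeded all 3 activating receptor genes together when every transcript was counted. It had 338 TPM in library 1 and 288 in library 2, from 9969.2 and 10002.7 counts. The activating sum was 190 and 144 TPM, so that activating over inhibitory Fc receptor TPM was 0.561 in library 1 and 0.499 in library 2 (0.530 ± 0.0440, SD, n = 2). Both libraries lay below 1. Over transcripts annotated as protein coding alone the order turned round: the activating sum was 161 and 135 TPM against 122 and 106 TPM for Fcgr2b, a ratio of 1.32 in library 1 and 1.27 in library 2. The kallisto tables gave the same pair of results, 0.559 and 0.513 over all transcripts and 1.25 and 1.34 over coding ones. Which receptor type was the more abundant therefore depended on whether the non-coding transcripts of Fcgr2b were counted.

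Those transcripts made up most of the Fcgr2b signal. Coding transcripts held 36.1% of its TPM in library 1 and 36.6% in library 2. Transcripts annotated as retaining an intron held 40.9% and 38.1%, and the processed transcript Fcgr2b-206 held 23.0% and 25.3%. The leading transcript by mean share was the intron-retaining Fcgr2b-205, at 83.9 and 82.3 TPM. The coding transcript Fcgr2b-202 had 83.9 and 59.7 TPM, and the coding transcript Fcgr2b-201 had 38.2 and 45.8 TPM. In library 1 the coding Fcgr2b-202 and the intron-retaining Fcgr2b-205 were level, and in library 2 Fcgr2b-205 was higher. Nuclear RNA can hold transcripts that are not yet spliced, and reads from these can be assigned to annotated intron-retaining transcripts, so these shares cannot separate a kept intron from an unfinished one.

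Fcgr2b-201 and Fcgr2b-202 differ in their coding part by a cassette exon in the cytoplasmic tail, the insert that distinguishes the b1 form, known from B cells, from the b2 form, known from macrophages. The exon is shown because it is the difference between the coding parts of these transcripts. It is exon 6 of the 8 of Fcgr2b-201, 141 bases at chr1:170963325-170963465 on the minus strand of mm10, and Fcgr2b-202 lacks it. The ITIM, in the last exon of both, follows it at chr1:170961071-170961088, with its tyrosine codon in capitals.
Fcgr2b cassette exon: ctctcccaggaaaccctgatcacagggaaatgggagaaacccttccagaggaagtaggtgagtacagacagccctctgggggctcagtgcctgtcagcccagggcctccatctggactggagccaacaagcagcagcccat
Fcgr2b ITIM: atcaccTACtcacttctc

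Transcripts with the whole cassette exon held 31.3% of the coding Fcgr2b TPM in library 1 and 43.4% in library 2 by RSEM (37.3% ± 8.51, SD, n = 2). By kallisto they held 38.8% and 54.1%. Library 2 was higher by both programs, and the kallisto value of library 2 alone passed 50%. Fcgr2b-201 also runs 1941 bases further at its 3′ end than Fcgr2b-202, so reads from that end weigh in the division and the share does not measure the exon by itself. The B cell markers summed to 1.08 TPM in library 1 and 1.10 in library 2 by RSEM, with Pax5 at 0. By kallisto the B cell marker Fcer2a alone had 2.97 and 2.93 TPM, where Fcgr2b had 96.1 and 176 TPM. By RSEM Fcer2a had 0.02 and 0.21 TPM. The part of B cells in the share was not tested. The antisense gene Gm38204, which overlaps Fcgr2b on the plus strand, had 5 and 7 counts.

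Fcgr2b, Fcgr4, Fcgr3 and Fcer1g lie together on chromosome 1, within 275749 bases of mm10, in that order from chr1:170958617 to chr1:171234365. The interval holds 17 annotated genes, of which 7 were detected. The detected ones beside the 4 named were the mitochondrial complex II gene Sdhc at 6.81 and 11.4 TPM, Tomm40l at 7.99 and 5.76 TPM and the non-coding Gm10522 at 1.9 and 1.83 TPM. Within the interval the flanking genes Fcgr2b and Fcer1g stood above the inner genes Fcgr4 and Fcgr3 in both libraries. Fcgr2b over Fcgr3 was 18.3 in library 1 and 13.1 in library 2 over all transcripts, and 9.33 and 7.53 over coding transcripts. The aligned coding parts of Fcgr2b-202 and Fcgr3-201 are 96.5% identical over 509 columns, with an unbroken shared run of 129 bases. Reads of the pair could be exchanged along such shared stretches, and the read length was not used here. The deposited posterior SD of the count, RSEM's measure of how uncertain the sharing of reads left it, was 0.87 and 0.5 counts for Fcgr2b and 0.81 and 0.5 counts for Fcgr3. Fcgr4 is less alike, 62.6% identical to Fcgr3-201 over 655 columns, and its posterior SD was 0.

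Pirb, the paired immunoglobulin-like receptor B that restrains myeloid and B cells, was as abundant as Fcgr2b. It had 337 TPM in library 1 and 255 in library 2, from 20704.6 and 16437.5 counts. The 2 inhibitory genes overlapped in level. Most of the Pirb signal was in transcripts with a retained intron: they held 86.1% of its TPM in library 1 and 82.4% in library 2, and the coding transcript Pirb-201 held 13.9% and 17.6%. Among 5058 protein-coding genes with such a transcript and at least 100 counts in both libraries the median retained-intron share was 24.0%, 677 genes (13.4%) passed 50%, and 37 genes exceeded Pirb. The kallisto shares of Pirb were 89.1% and 86.0%, against a median of 29.9% for the same genes.

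Most of that share was a single transcript, Pirb-202, with 58.2% of Pirb TPM in each library. It keeps the intron of 227 bases at chr7:3716891-3717117 on the minus strand of mm10, inside its exon 6 of 14, which is removed from Pirb-201. Pirb-202 is 2923 bases long against 3824 for Pirb-201, so they also differ outside this intron. Its share includes reads from elsewhere and does not measure retention of the intron by itself. The intron is printed with its first and last bases in capitals, and the ITIM matches in exons 12 to 15 of Pirb-201 follow, with tyrosine codons in capitals.
Pirb kept intron: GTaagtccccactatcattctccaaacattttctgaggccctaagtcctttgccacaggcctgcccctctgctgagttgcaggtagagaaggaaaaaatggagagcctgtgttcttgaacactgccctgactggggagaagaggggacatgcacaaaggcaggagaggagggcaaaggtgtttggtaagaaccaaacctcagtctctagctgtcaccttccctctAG
Pirb ITIM match, exons 12 and 13: agcctaTATgcttcagtg
Pirb ITIM match, exon 15, upstream: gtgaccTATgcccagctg
Pirb ITIM match, exon 15, downstream: agtgtaTATgctactctg

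Pirb-202 had 196 TPM in library 1 and 148 in library 2, and Pirb-201 had 46.9 and 44.8 TPM. Pirb-205, which also retains intron sequence, had 61.3 and 33.0 TPM. Pirb-202 led in both libraries by RSEM and held 61.0% and 62.9% of Pirb TPM by kallisto. Pirb has close relatives: the activating receptor gene Pira2 is 96.9% identical to the coding part of Pirb-201 over 1900 columns, with a shared run of 477 bases, and Lilra6 is 96.0% identical over 1856 columns. Pira2 had 36.0 and 46.1 TPM and Lilra6 3.58 and 4.11 TPM, and both are uncertain to the extent that reads were exchanged with Pirb. The posterior SD was 14.1 and 15.0 counts for Pirb and 54.7 and 55.8 counts for Pira2.

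Fcer1g, the gamma chain on which Fcgr1, Fcgr3 and Fcgr4 depend, was the highest of the 9 genes. It had 373 TPM in library 1 and 509 in library 2, from 3629 and 5202 counts. Tyrobp had 106 and 97.0 TPM from 875 and 816 counts. Fcer1g over Tyrobp was 3.52 in library 1 and 5.25 in library 2 (4.39 ± 1.22, SD, n = 2), above 1 in both. Fcer1g also exceeded the summed activating Fc receptors, by 1.97 times in library 1 and 3.54 times in library 2. The tyrosines that Syk binds are encoded by short stretches of each adaptor, shown here because 1 of the coding transcripts of Fcer1g lacks them. Both stretches span exons 4 and 5 of 5, from chr1:171229889 to chr1:171230072 (minus strand) in Fcer1g-201 and from chr7:30415670 to chr7:30417382 (plus strand) in Tyrobp-202 (mm10, intron left out), with tyrosine codons in capitals.
Fcer1g ITAM: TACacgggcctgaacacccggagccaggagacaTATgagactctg
Tyrobp ITAM: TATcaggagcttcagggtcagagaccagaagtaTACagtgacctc

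The ITAM was searched as a tyrosine codon, 2 codons of any kind and a leucine or isoleucine codon, repeated after 6 to 8 codons, in the annotated reading frame. Of 21768 genes with a complete coding transcript 633 (2.91%) held it in at least 1. Fcer1g-201 and the Tyrobp coding transcripts Tyrobp-201 and Tyrobp-202 matched, and no coding transcript of the 3 activating Fc receptor genes, Fcgr2b, Pirb, Syk or Trem1 did. The single-tyrosine ITIM pattern (isoleucine, leucine, valine or serine, any codon, tyrosine, 2 codons of any kind, then isoleucine, leucine or valine) is far less selective and was present in 49.3% of genes. Pirb-201 had 4 matches, of which 1 in exon 3 is not printed, and Fcgr2b-202 had 1. It was not particular to the inhibitory genes, since Fcgr1-201 had 3 matches and Fcgr4-201, Fcer1g-201, Tyrobp-201 and Tyrobp-202 had 1 each.

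Fcer1g-203, whose altered reading frame has no ITAM, held little of the coding TPM by RSEM. It had 13.9 TPM in library 1 and 7.76 in library 2, against 340 and 498 TPM for Fcer1g-201. Its share of the coding TPM was 3.94% and 1.53% by RSEM but 22.3% and 9.52% by kallisto. The programs differed on its size, and library 1 was the higher with each. Tyrobp was divided between Tyrobp-202 at 77.5% and 85.7% of its TPM and Tyrobp-201 at 21.2% and 14.0%. By kallisto Tyrobp-202 held 83.3% and 96.7% and Tyrobp-201 13.9% and 2.70%. The posterior SD of the count of Tyrobp-201 was 71.4 and 57.1, on counts of 173 and 105.5, so the division is uncertain. Both Tyrobp transcripts hold the ITAM, although the annotated coding part of Tyrobp-202 is incomplete.

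Syk, the kinase that docks on phosphorylated ITAMs, had 277 TPM in library 1 and 195 in library 2, from 22031 and 16514 counts. Coding transcripts held 57.2% and 58.6% of its TPM and intron-retaining ones 42.8% and 41.4%. The leading transcript by RSEM, the coding Syk-201, had 94.6 and 71.0 TPM, and the coding Syk-203, which starts 13680 bases upstream, had 55.9 and 38.1 TPM. The intron-retaining Syk-204 had 76.3 and 50.9 TPM and Syk-205 had 42.2 and 29.9 TPM. The order Syk-201, Syk-204, Syk-203, Syk-205 was the same in both libraries by RSEM. By kallisto it held in library 2. In library 1 Syk-204 led by kallisto, with 29.7% of Syk TPM against 27.65% for Syk-201. Syk-201 and Syk-203 include an exon of 69 bases that encodes the linker insert of the long form of the kinase, at chr13:52624708-52624776 on the plus strand of mm10, and Syk-202 lacks it.
Syk cassette exon: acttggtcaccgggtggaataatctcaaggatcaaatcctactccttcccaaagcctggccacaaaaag

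Transcripts with this exon held 95.2% of coding Syk TPM in library 1 and 95.6% in library 2 by RSEM, and 90.7% and 92.5% by kallisto. The long form led in every case. Syk-202 also ends 5168 genomic bases before Syk-201, so here too the share includes reads from outside the exon.

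**Figure D2:**
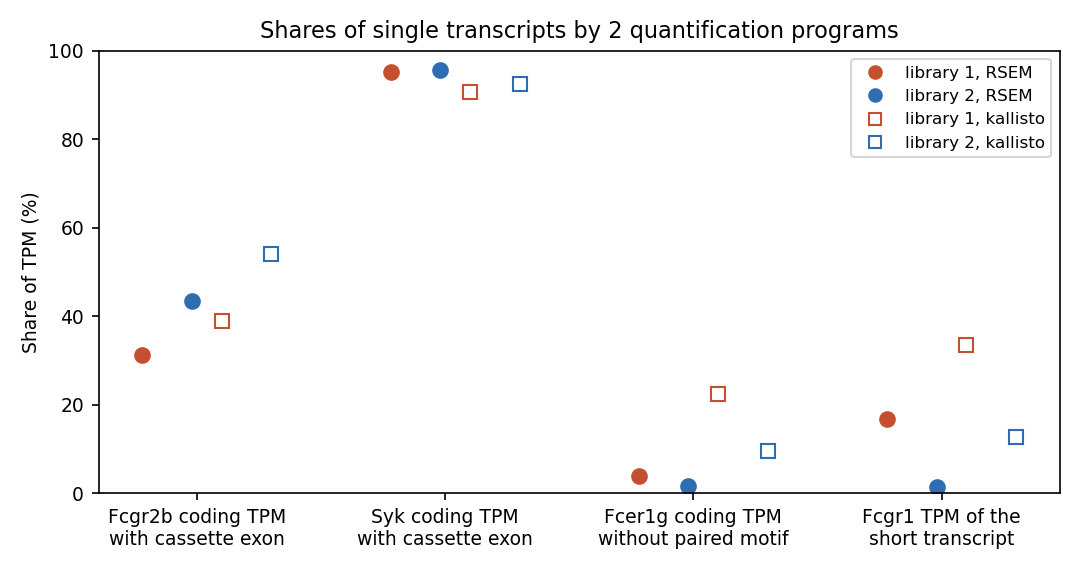
Shares (%) of library 1 (red) and library 2 (blue) by RSEM (filled circles) and kallisto (open squares) for coding Fcgr2b TPM with the cassette exon, coding Syk TPM with the cassette exon, coding Fcer1g TPM without the ITAM, and Fcgr1 TPM of the transcript Fcgr1-202. The Syk points lie between 90.7% and 95.6%, while the Fcgr2b points lie between 31.3% and 54.1%.

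The other members were mostly coding. Fcgr4 has 1 annotated transcript, which is coding. Fcgr3 had 71.0% and 63.6% of its TPM in coding transcripts, led by Fcgr3-201 at 11.4 and 12.7 TPM, and 29.0% and 36.4% in the intron-retaining Fcgr3-203. The coding Fcgr1-201 held 83.2% of Fcgr1 TPM in library 1 and 98.5% in library 2. The rest of Fcgr1 was Fcgr1-202, a transcript of 600 bases annotated for nonsense-mediated decay, with 196 and 11.4 counts and a posterior SD of 35.5 and 11.6 counts. Its counts in the 2 libraries were further apart than those deviations, which cover only how reads were shared within a library. Fcer1g-202, of 361 bases, had 66.1 and 10.3 counts, and Fcgr2b-207, of 462 bases, had 300.5 and 151 counts. Of the Tyrobp transcripts, Tyrobp-201 (564 bases) had 173 and 105.5 counts and Tyrobp-203 (575 bases) had 10.9 and 2.44 counts. Tyrobp-202, of 597 bases, had 691 and 708 counts with a posterior SD of 71.2 and 57.1 counts. These counts are not scaled for library depth. The posterior SD covers only how reads were shared within a library, so the difference between libraries was not judged. The part of transcript length in these counts was not tested.

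**Figure D3:**
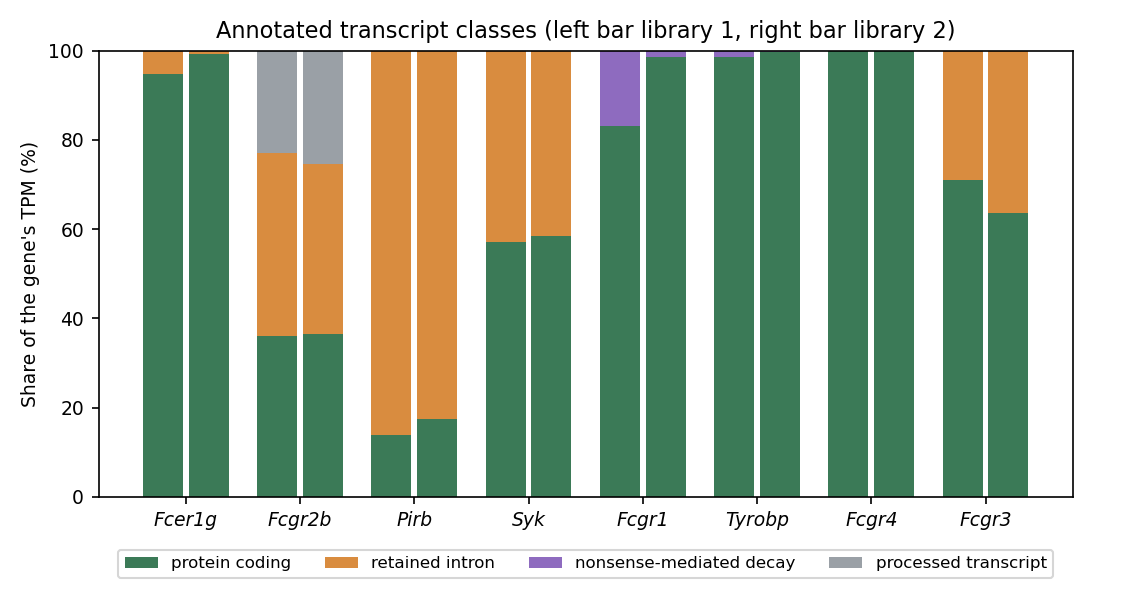
Share (%) of each gene's RSEM TPM in transcripts annotated protein coding, retained intron, nonsense-mediated decay or processed transcript, with library 1 left and library 2 right of each pair of bars. Pirb is 86.1% and 82.4% retained intron, whereas Fcgr4 is wholly protein coding.

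Counting coding transcripts alone rearranged the order of the genes. Over all transcripts it ran Fcer1g, Fcgr2b, Pirb, Syk, Fcgr1, Tyrobp, Fcgr4, Fcgr3, Trem1 by mean TPM. Fcgr2b and Pirb overlapped between libraries, as did Pirb and Syk, and Fcgr1 and Tyrobp, and the other neighbours did not. Over coding transcripts Fcer1g had 354 TPM in library 1 and 506 in library 2, and Syk followed with 158 and 114 TPM. Fcgr2b had 122 and 106 TPM, Fcgr1 had 115 and 87.0 TPM and Tyrobp had 104 and 96.8 TPM. The values of Syk overlapped those of Fcgr2b and just reached those of Fcgr1, and Fcgr1 overlapped both Fcgr2b and Tyrobp, while both libraries of Fcgr2b lay above both of Tyrobp. Pirb moved below them, at 46.9 and 44.8 TPM, still above Fcgr4 at 33.7 and 33.6 TPM and Fcgr3 at 13.1 and 14.0 TPM.

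Trem1, a receptor that amplifies inflammation through Tyrobp, had 3 expected counts in each library, 0.05 TPM in both. Each count of 3 has an exact Poisson 95% interval of 0.619 to 8.77 counts, which covers counting error only, and lies at the floor of 3 counts (a CPM, or depth-scaled count, of 0.152 in library 1 and 0.174 in library 2). In the kallisto tables Trem1 had 10.05 and 13 estimated counts, 0.0346 and 0.0840 TPM, just past the detection minimum of 10 in both libraries, so the call of Trem1 as not detected depends on the program. Its neighbour Trem3 had 1 and 0 counts, and the pseudogene AC241601.2 inside its span had 0 in both. The adaptor partner Tyrobp and the related receptor Trem2, at 60.0 and 78.6 TPM, were far above the floor.

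The 8 detected genes differed little between the libraries once the scale was set equal. TPM of library 1 over library 2 was centred on the median detected protein-coding gene, which lay at 0.36 on the log2 scale. None of the 8 was past 2-fold in either direction, against 3.87% of the 8936 genes with a mean of at least 100 counts, so that 0 of 8 does not set them apart. The median absolute centred log2 ratio was 0.26 for the 8 and 0.29 for all 8936 genes. Fcer1g was furthest apart, at −0.81 on the log2 scale or 1.75-fold higher in library 2, and 7.74% of genes were at least as far apart. Fcgr3 followed at −0.62, then Fcgr4 at −0.35, Tyrobp at −0.23 and Fcgr2b at −0.13, all lower in library 1. Fcgr1 at 0.28, Syk at 0.15 and Pirb at 0.04 were higher in library 1. Without centring Fcgr2b, Fcgr4 and Tyrobp changed sign. The RNA input and the mitochondrial share of counts differ between the same libraries, and their part in these ratios was not tested.

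**Figure D4:**
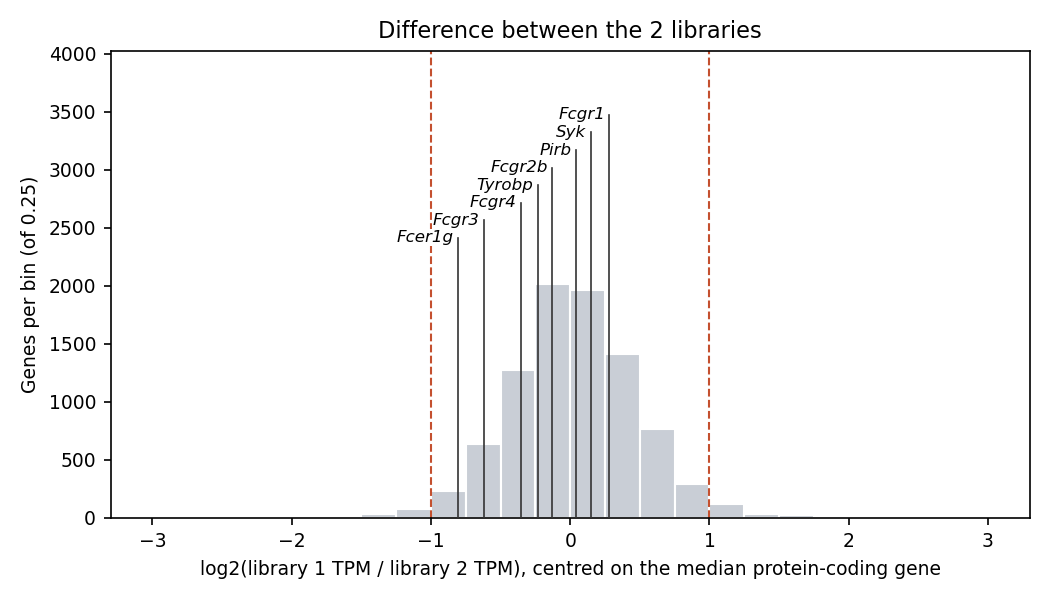
Number of genes per bin of 0.25 in the centred log2 ratio of library 1 over library 2 TPM, for 8936 genes (grey), with the 8 detected genes as labelled lines and 2-fold as dashed red lines; values beyond 3 are drawn in the outermost bins. All 8 lines lie between the dashed lines, from Fcer1g at −0.81 to Fcgr1 at 0.28.

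Around the 9 genes, the wider pathway was read from 7 lists of other genes. The highest levels on these lists were those of inhibitory receptors and a close relative. All 18 measured genes on the list named ITIM receptors were detected, at a median of 19.6 TPM (77.6th percentile). Of these 7 were in the top 10% of protein-coding genes. Whether each gene on the list encodes a working ITIM was not tested, so these are counts of the list. Lilrb4a, an inhibitory receptor of myeloid cells, had 1266 and 1602 TPM and Sirpa, the receptor for the self signal CD47, had 1132 and 869 TPM. Both exceeded Fcgr2b and Pirb in each library. Lilr4b, known as gp49A and placed on this list although it is known to lack a working ITIM, had 1273 and 1324 TPM. It is 95.8% identical to Lilrb4a over 909 columns of coding sequence. The values of the pair are uncertain to the extent that they share reads (posterior SD 109 and 111 counts for Lilrb4a). The ITIM pattern, present in 49.3% of genes, had 1 match in Lilr4b-201 and 3 in Lilrb4a-201, and a match does not show a working motif. The lowest detected was Siglecg, a B cell Siglec, at 0.180 and 0.220 TPM.

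Receptors listed as partners of the adaptors spread over a wide range. Whether each of them pairs with Fcer1g or Tyrobp was not tested, so the counts are those of the list. Of 24 measured receptors on the list of Fcer1g or Tyrobp partners 19 were detected, at a median of 6.14 TPM (48.6th percentile), and 5 were in the top 10%. Clec4e, the lectin Mincle that signals through Fcer1g, had 747 and 597 TPM, above Fcer1g itself in both libraries. Csf1r, the receptor for the growth factor M-CSF, had 318 and 258 TPM, and Clec12a, listed here although best known as an inhibitory lectin, had 100 and 112 TPM. Siglech, a Tyrobp partner of plasmacytoid dendritic cells, was lowest of those detected at 0.350 and 0.280 TPM, and Oscar was at 0.

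Kinases and effectors beside Syk were present at moderate to high levels. Of the 11 Src-family kinases and their controls 9 were detected, at a median of 12.8 TPM. They were led by the phosphatase gene Ptprc, which encodes CD45, at 395 and 346 TPM, then by the kinase gene Lyn at 138 and 96.8 TPM and the phosphatase gene Ptprj at 96.7 and 81.0 TPM. The kinase gene Fgr was lowest, at 1.31 and 0.630 TPM. Of 24 Syk substrates and effectors 22 were detected, at a median of 24.5 TPM, with 9 in the top 10%. Malt1, a protease of the CARD9 and BCL10 complex, had 449 and 328 TPM. Pik3ap1, an adaptor for PI3 kinase, had 267 and 214 TPM, and Prkcd, a protein kinase C, had 220 and 122 TPM. Malt1 exceeded Syk in both libraries. Plcg1, a phospholipase C, was lowest of those detected at 3.36 and 2.04 TPM.

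Brakes on ITAM signalling were detected for 14 of 15 measured genes, at a median of 15.1 TPM. The inositol phosphatase gene Inpp5d, which encodes SHIP1, the enzyme that Fcgr2b recruits, had 85.3 and 49.6 TPM. Cbl, a ubiquitin ligase, had 60.3 and 49.8 TPM and Ptpn6, which encodes the phosphatase SHP-1 recruited by Pirb, had 53.5 and 36.1 TPM. Over all transcripts Inpp5d was below Fcgr2b and Ptpn6 below Pirb in both libraries. The coding transcripts of Pirb alone, at 46.9 and 44.8 TPM, overlapped Ptpn6 over all its transcripts and lay below it in library 1. This sets a part of Pirb against the whole of Ptpn6, whose coding transcripts were not taken apart here. Ubash3b was lowest of those detected at 5.73 and 4.10 TPM.

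Most Fc receptor genes of other kinds, and the other adaptor genes, were not detected by RSEM. Of 12 other Fc receptor genes 4 were detected: the cytosolic antibody receptor gene Trim21 at 39.7 and 24.3 TPM, the neonatal receptor gene Fcgrt at 16.7 and 11.8 TPM, Fcrl5 at 2.52 and 2.06 TPM and Fcrl1 at 1.48 and 1.42 TPM. Trim21 exceeded Fcgr3 in both libraries, and Trim21 and Fcgrt were above the median detected protein-coding gene. The programs differed on Fcer2a, an IgE receptor gene not detected by RSEM at 0.02 and 0.21 TPM. By kallisto it had 2.97 and 2.93 TPM, above Fcrl5 at 0.950 and 2.25 TPM by the same program. Fcer1a and Ms4a2, which form the IgE receptor of mast cells with the Fcer1g chain, were at 0 in both libraries. None of 6 other adaptors was detected by RSEM. The highest by TPM, Hcst (DAP10), lies 127 bases from Tyrobp on the opposite strand. It had 2.01 and 1.82 TPM from 10 and 9 counts, under the minimum of 10 in library 2 alone. By kallisto Hcst had 3.13 and 3.87 TPM.

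**Figure D5:**
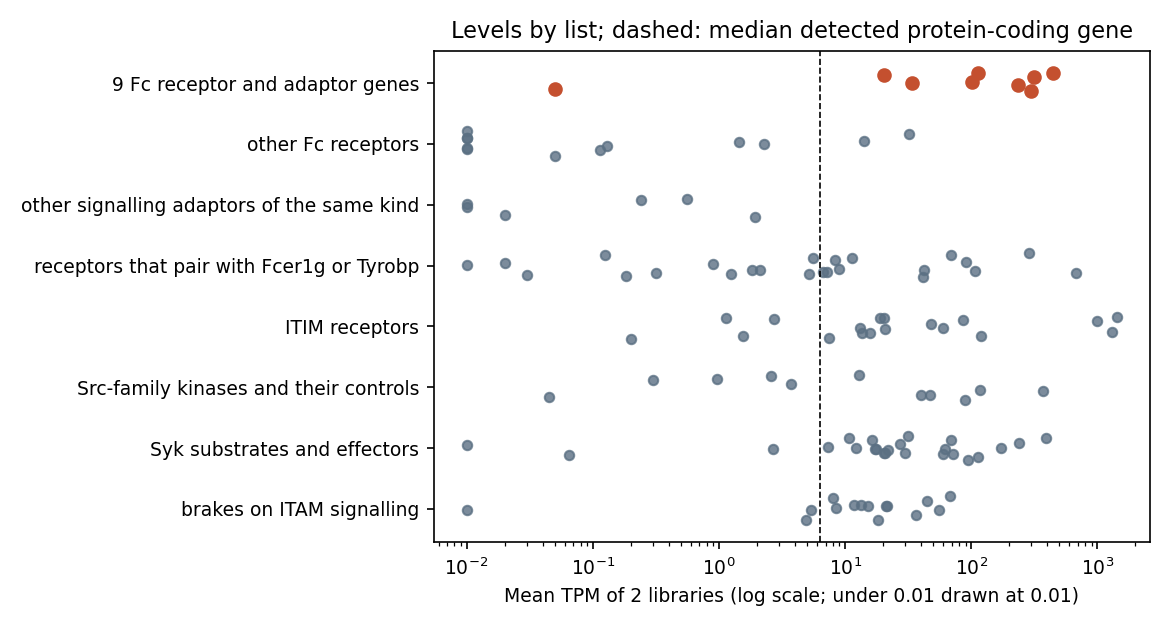
Mean TPM of the 2 libraries (log axis, values under 0.01 drawn at 0.01) of the 9 genes (red) and of the genes on 7 other lists (grey), with the median detected protein-coding gene at 6.38 TPM as a dashed line; vertical scatter within a row carries no value. The highest points are Lilrb4a, Lilr4b and Sirpa on the list named ITIM receptors, and Trem1 is the lowest red point.

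On the 7 lists together, 3 of 76 genes with a mean of at least 100 counts were past 2-fold between the libraries (3.95%), a share near the background of 3.87%. All 3 were among the 14 such genes on the list of adaptor partners (21.4%). Pilrb2 was higher in library 1 at 1.08 on the log2 scale. Cd300ld and Clec7a were higher in library 2 at −1.12 and −1.006, the latter only just past the cut. These 3 genes are named after their values were seen, and no test of them was possible with 1 library on each side.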

How the data were processed

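Each library came with an RSEM gene table, an RSEM transcript table and a kallisto transcript table. Per the submitters' processing notes beside the files, the build was mm10 and the annotation GENCODE M21; no version of either program and no aligner is given in the sources used here. Expected counts, which need not be whole, were used as deposited, with short features without a gene name, spike-ins and phiX left out of library sizes. TPM and FPKM were used as the authors deposited them, and FPKM is not quoted. The posterior SD of the count is a precision score deposited by the authors. The percent of a gene's TPM in a transcript was used as deposited for single RSEM transcripts and computed here for transcript classes and for kallisto.

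From these, percentiles among detected protein-coding genes (10 or more expected counts in both libraries), ratios within a library, and library 1 over library 2 ratios centred on the median detected protein-coding gene were computed with Python 3.11.15, numpy 2.4.6 and pandas 2.3.3. Percentile and centring were tested on simulated data. TMM factors (edgeR 4.0.16) and DESeq2 1.42.0 size factors on rounded expected counts served as alternatives. With 1 group no comparison between conditions and no p-value was possible. The counts of the libraries differed by more than counting noise (chi-square over its degrees of freedom 87.9 across detected genes), which checks only that they are not copies of 1 library. Intervals and floors cover counting error only. No source used here states whether counting used the strand.

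The 9 genes, the gene lists and the isoform comparisons were chosen with earlier results of these data known. Named genes are the 9, genes whose span overlaps theirs, the 3 highest and the lowest detected gene of each pathway list, the highest of each marker list, and each gene's leading transcript and those with at least 10% of its TPM in both libraries; neighbours, near-identical relatives and further transcripts named beside them were chosen after their values were seen. A protein table was not used, so relatives were compared by coding sequence (Biopython 1.88, local alignment). Of the listed symbols 6 did not match the annotation. Coding frames and sequences are those of GENCODE M21 transcripts.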

Additional observations from a re-analysis of the deposited data

How the results depend on the processing

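The median percentile of the 9 genes, 96.65, became 96.1 with kallisto TPM, 97.5 with coding transcripts alone, 95.9 with a minimum of 50 counts and 98.3 with no minimum, and ranged from 96.6 to 96.85 leaving out each library. The log2 ratio of activating over inhibitory Fc receptors, −0.92, became −0.60 with expected counts and turned to 0.38 with coding transcripts alone and, chosen after seeing the data, to 0.37 with coding transcripts in kallisto; it was −0.90 with all kallisto transcripts and ranged from −1.0 to −0.83 leaving out each library. The log2 ratio of Fcer1g over Tyrobp stayed between 1.82 and 2.39 in every alternative. The count of genes past 2-fold was 0 under each alternative scaling, program and pseudocount. Without centring the library ratio turned to 0.23 for Fcgr2b, 0.0047 for Fcgr4 and 0.13 for Tyrobp; no other alternative reversed a gene's ratio. Kallisto moved the coding share of 6 of 8 genes by more than the SD between libraries, the largest shift being that of Fcgr1, to 77.0% against 90.9%. Kallisto TPM was on another scale in each library, so its levels (8 lower, 1 higher) are not comparable with those of RSEM, and kallisto counts were higher for all 9 genes. Rescaling TPM to protein-coding genes outside the mitochondrial genome raises every level by construction. With coding transcripts alone 4 levels were lower by more than the SD. With 2 libraries an SD is itself imprecise. No paired analysis was possible because the series holds 1 group.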
